A study of Mus musculus with 5 samples.

Results

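In single T cells of the mouse brain, 9 genes that build and turn over the actin cytoskeleton were followed: Actb, Actg1, Tmsb4x, Tmsb10, Cfl1, Pfn1, Coro1a, Arpc2 and Arpc1b. They were chosen by name, with no limit set on a level or a difference, and all 9 had a row in the count tables, among 15952 genes with at least 1 unique molecular identifier (UMI, a tag that marks 1 captured RNA molecule) in the kept cells. The cells were T cells sorted 1 per well as positive for CD45 and TCRβ and negative for CD11b, from the brain parenchyma of Grl1loxP/loxP mice with the choroid plexus left out. TAT-CRE recombinase, a cell-permeable Cre, had been given into the brain ventricles of 3 mice (TAT-CRE 207 and 208, aged 18 weeks, and TAT-CRE 215, aged 19 weeks). The 2 control mice had received PBS there (PBS 216, aged 19 weeks, and PBS 218, aged 16 weeks). Mice of both groups carried the loxP-flanked alleles, were exposed to foot shocks on 2 consecutive days and were sampled on day 14 after the stress. The series title sets the question: how T cells of the brain differ after psychological stress when the choroid plexus has less glucocorticoid receptor. The choroid plexus, where recombination was aimed, was not part of the sampled tissue, so nothing in these cells checks how far it went.

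Actin exists as single subunits and as filaments, and a T cell keeps shifting between the forms when it crawls, squeezes through tissue or forms a synapse with another cell. Thymosins hold single subunits in reserve, profilin loads them for growth, cofilin cuts and dismantles old filaments, and the Arp2/3 complex starts branches on existing ones. Coronin 1A, found mostly in blood cells, binds filaments and is needed for T cell survival and trafficking in mice and humans.

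Of 1900 wells that held 1 cell, 1482 passed the filters, namely 311, 303 and 298 in the TAT-CRE mice, against 296 and 274 in the PBS mice. Values by mouse are given here and throughout in the order 207, 208 and 215 for TAT-CRE, and 216 and 218 for PBS. Median depth in the TAT-CRE mice was 1953, 993 and 1600.5 UMIs a cell, against 1410 and 2660 in the PBS mice. TAT-CRE 208 stood apart, as the shallowest library and with 28.3% of its UMIs on ribosomal RNA rows, against 43.9% to 48.0% in the other 4 mice. Levels are therefore given as UMIs per 1000000 UMIs outside 4 ribosomal RNA rows (CPM), and values without that mouse stand beside the estimates whose sign it changed. No well identifier was shared between libraries, and chi-square per degree of freedom between pairs of libraries was 4.42 to 13.4, so no library repeated another. All 10 T cell markers on the list were found, with a summed level of 7837 to 8027 CPM in TAT-CRE mice and 7818 to 9236 CPM in PBS mice. None of the 4 neutrophil, 4 platelet or 4 neuron markers had a UMI, and of 8 microglial markers P2ry12, Tmem119, Trem2 and C1qb were at 0. The other microglial markers, among them Cx3cr1, which T cells also make, summed to 9.81 to 104 CPM in TAT-CRE mice and 59.5 to 156 CPM in PBS mice. Of 6 monocyte and macrophage markers Lyz2, Csf1r, Mrc1 and Adgre1 were at 0, and Itgam and Ccr2 summed to 166 to 278 CPM in TAT-CRE mice and 156 to 234 CPM in PBS mice. Of 4 endothelial markers only Pecam1 was found, at 36.0 to 272 CPM in TAT-CRE mice and 43.2 to 61.6 CPM in PBS mice. Oligodendrocyte markers (3 of 4 found, Mog at 0) summed to 146 to 213 CPM in TAT-CRE mice and 163 to 238 CPM in PBS mice. Astrocyte (1 of 4 found), erythroid (3 of 5) and choroid plexus (1 of 4) markers summed to at most 11.5 CPM in TAT-CRE mice and 9.97 CPM in PBS mice. Their part in the levels of the 9 genes was not tested. Nr3c1, the floxed receptor gene, had 121, 51 and 92 UMIs (323, 196 and 301 CPM) in the TAT-CRE mice, against 106 and 186 UMIs (352 and 395 CPM) in the PBS mice.

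Which molecules a row counts decides what its level means, so the coding sequences of the 2 thymosins and of the 2 near copies with the most UMIs are shown first. They were read from the GENCODE M21 annotation of mouse build GRCm38, which is mm10, and each is 5′ to 3′ on its own strand. In Tmsb10 and Tmsb4x capitals mark the bases at which the pair differ. In Gm3788 and Gm9844 they mark bases that differ from Tmsb10 or, in Gm3788, a base that Tmsb10 lacks.
Tmsb10: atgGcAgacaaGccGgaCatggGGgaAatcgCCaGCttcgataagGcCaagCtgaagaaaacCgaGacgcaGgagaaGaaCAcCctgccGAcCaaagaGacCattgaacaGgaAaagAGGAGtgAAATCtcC
Tmsb4x: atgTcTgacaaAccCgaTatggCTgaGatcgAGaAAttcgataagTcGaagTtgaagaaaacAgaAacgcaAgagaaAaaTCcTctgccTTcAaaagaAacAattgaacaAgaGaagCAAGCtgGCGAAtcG
Gm3788: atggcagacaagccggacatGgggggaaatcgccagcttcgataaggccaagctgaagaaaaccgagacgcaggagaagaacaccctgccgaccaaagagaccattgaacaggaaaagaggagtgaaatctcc
Gm9844: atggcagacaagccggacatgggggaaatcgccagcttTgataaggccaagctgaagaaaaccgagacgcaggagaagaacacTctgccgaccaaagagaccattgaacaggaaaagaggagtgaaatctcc
The thymosins each have 44 codons, and 92 of 132 bases (69.7%) are identical between them. Which stretch of a transcript the reads covered is not given in the sources used here. Gm3788, annotated as a processed pseudogene on chromosome 3, held the Tmsb10 sequence with no mismatch and 1 added base. Gm9844 on chromosome 7, annotated as protein coding, differed from Tmsb10 at 2 bases.

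Tmsb10 shared its signal with these copies in every mouse. The Tmsb10 row held 998 UMIs in kept cells, against 738 on Gm3788 and 540 on Gm9844, and 6 near copies together held 1348. A near copy here is another gene that matches at least 80% of the coding sequence at 90% identity or more. Of the UMIs of Tmsb10 and its copies, 53.0%, 59.8% and 57.3% lay on copy rows in the TAT-CRE mice, against 60.5% and 57.0% in the PBS mice. Actg1, the gene of gamma-actin, was divided in the same way, with 196 UMIs on its own row and 195 on Gm8399, a processed pseudogene on chromosome 13 that is 98.6% identical. That copy held 53, 32 and 22 UMIs in the TAT-CRE mice where Actg1 held 50, 37 and 23, and 39 and 49 in the PBS mice where Actg1 held 34 and 52. The copy count thus lay within a few UMIs of the member's in each library. Cfl1 had 2138 UMIs against 242 on Gm6180 (98.8% identical), Actb had 20568 against 362 on Gm15725 (91.8% identical), and Arpc1b had 991 against 5 on Gm5637. Gm15725 lies within the protein-coding gene Lrrc58 on the same strand. Lrrc58 matches Actb at 91.8% identity as well, had 41 UMIs on its own row and was left out of the copy sum. No near copy was found for Tmsb4x, Pfn1, Coro1a or Arpc2. Whether the copies are transcribed or took reads of the member was not tested, so the levels of Tmsb10 and Actg1 are uncertain at least to that extent. How reads that match several genes were counted, or whether they were dropped, is not given in the sources used here. Coro1a overlaps Bola2 (411 UMIs) and Arpc1b overlaps Pdap1 (220 UMIs), each on the opposite strand, and whether counting used the strand is not given in the sources used here.

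**Figure D1:**
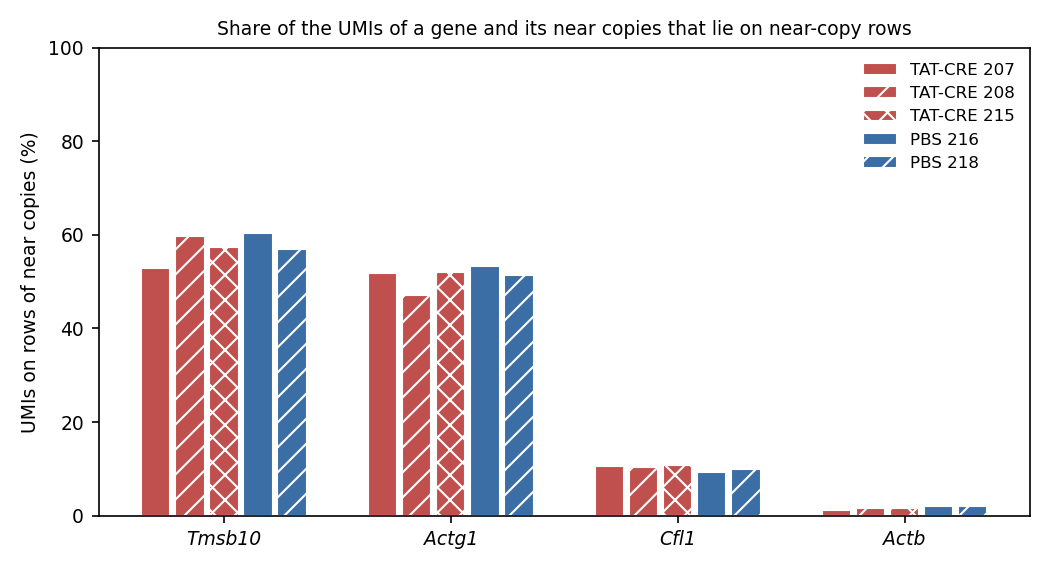
Percent of the UMIs of a gene and its near copies that lay on the near-copy rows (y axis), for 4 genes (x axis), with 1 bar per mouse, TAT-CRE in red and PBS in blue. Bars for Tmsb10 stand between 53.0% and 60.5% and those for Actg1 between 47.1% and 53.4%, those for Cfl1 near 10% and those for Actb at 2.0% or less.

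Actb ranked 1 and Tmsb4x ranked 2 in abundance among 15948 genes outside ribosomal RNA in these T cells. Together the 9 genes took 46237 UMIs, 2.70% of all UMIs outside ribosomal RNA, and Actb and Tmsb4x made up 83.6% of that. The share of the 9 was 2.60%, 2.82% and 2.79% in the TAT-CRE mice, against 2.71% and 2.64% in the PBS mice, and the groups overlapped. Levels of different genes are compared as UMIs without division by gene length, since each captured molecule is tagged once whatever its length. In order of level the genes were Actb, Tmsb4x, Cfl1, Arpc2, Coro1a, Arpc1b, Tmsb10, Actg1 and Pfn1. The order of 6 neighbouring pairs was the same in 5 of 5 mice. Arpc2 and Coro1a, and likewise Arpc1b and Tmsb10, did not differ beyond their spread, with the first of each pair higher in 2 of 5 mice. With the copy rows added, Tmsb10 would stand at 1157, 1178 and 1425 CPM in the TAT-CRE mice and at 1741 and 1372 CPM in the PBS mice, near Cfl1.

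**Figure D2:**
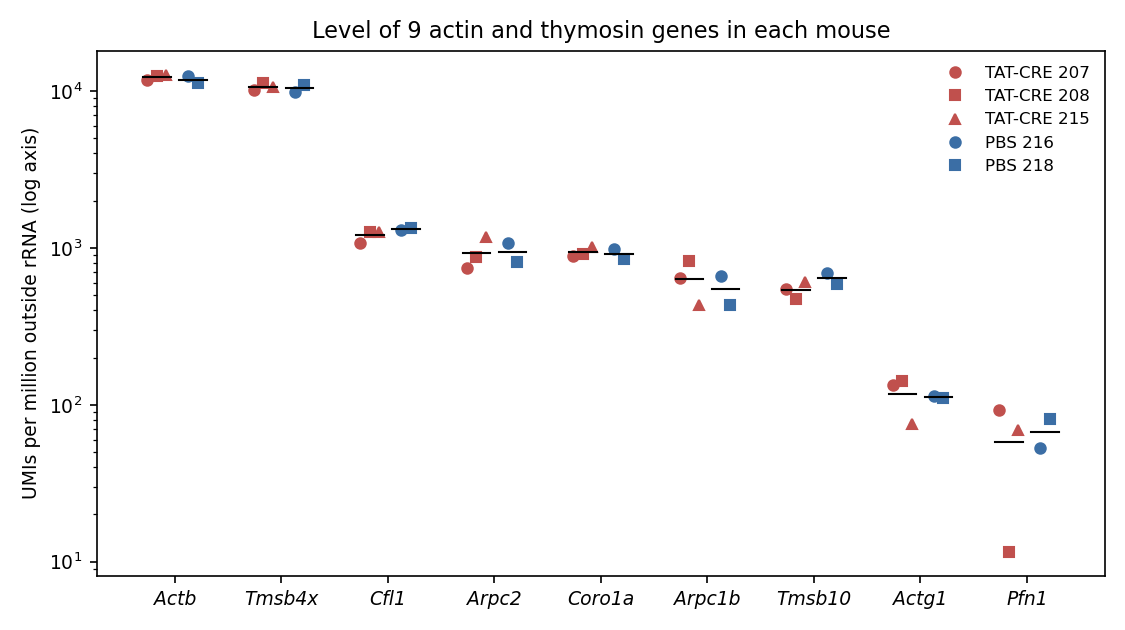
Level of each gene (x axis, in order of mean level) in CPM (y axis, log scale), 1 point per mouse, TAT-CRE in red left of PBS in blue, with a black line at each group mean. Actb and Tmsb4x stand between 9810 and 12735 in every mouse, Actg1 and Pfn1 near or below 142, and the Pfn1 point of TAT-CRE 208 lies at 11.5.

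On the deposited rows, actin UMIs lay almost wholly on the beta gene. Actb, which codes the actin of most non-muscle cells (chr5:142903115-142906754, minus strand), stood at 11784, 12423 and 12735 CPM in the TAT-CRE mice, against 12445 and 11215 CPM in the PBS mice. The highest and lowest mouse differed 1.14-fold and the groups overlapped. By edgeR's quasi-likelihood test on counts summed per mouse, the log2 fold change of TAT-CRE over PBS was 0.06 ± 0.09 (SE, Benjamini-Hochberg adjusted p = 0.999), with a 95% confidence interval of -0.14 to 0.26. A difference in Actb of more than about 1.20-fold upward or 0.905-fold downward thus lay outside the interval. Actg1 (chr11:120345690-120348542, minus strand) stood at 133, 142 and 75.2 CPM in the TAT-CRE mice, against 113 and 110 CPM in the PBS mice. There were 88.4, 87.2 and 169 Actb UMIs for each Actg1 UMI in the TAT-CRE mice, against 110 and 102 in the PBS mice. The coding sequences of the actins are 88.6% identical (997 of 1125 bases).

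The thymosins hold actin subunits in reserve, and Tmsb4x carried most of their UMIs. Tmsb4x (chrX:167207093-167209315, minus strand) stood at 10121, 11264 and 10557 CPM in the TAT-CRE mice, against 9810 and 10985 CPM in the PBS mice. The groups overlapped, with a log2 fold change of 0.04 ± 0.10 (SE; interval -0.17 to 0.24). Tmsb10 (chr6:72957347-72958748, minus strand) had 544, 474 and 608 CPM in the TAT-CRE mice, against 688 and 591 CPM in the PBS mice. Of the TAT-CRE values 2 lay below both PBS values and the third between them, and the log2 fold change was -0.23 ± 0.23 (interval -0.73 to 0.27). There were 18.6, 23.8 and 17.4 Tmsb4x UMIs for each on the Tmsb10 row in the TAT-CRE mice, against 14.3 and 18.6 in the PBS mice.

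Among the genes that handle subunits and old filaments, Cfl1 was the more abundant. Cfl1, cofilin 1 (chr19:5490455-5495201, plus strand), had 1082, 1267 and 1265 CPM in the TAT-CRE mice, against 1292 and 1332 CPM in the PBS mice. Its TAT-CRE values all lay below the PBS values, the only such separation among the 9 genes, beside 18.8% of the 5996 genes tested whose groups did not overlap in either direction. Its log2 fold change was -0.12 ± 0.18 (SE, adjusted p = 0.999), with an interval of -0.50 to 0.26. Pfn1, profilin 1 (chr11:70651850-70654644, minus strand), was read at only 113 UMIs: 35, 3 and 21 (93.3, 11.5 and 68.7 CPM) in the TAT-CRE mice, against 16 and 38 (53.2 and 80.7 CPM) in the PBS mice. The low value is that of TAT-CRE 208, and its cause was not tested. That library held 259756 UMIs outside ribosomal RNA in kept cells, against 301010 in PBS 216. With so few Pfn1 UMIs, a fold change between 0.308 and 2.50 lay inside the interval.

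Branching and filament-binding genes varied more between mice than Actb and Tmsb4x did. They also had far fewer UMIs, and counting error was not taken off this spread. Arpc2, a core subunit of the Arp2/3 complex (chr1:74236084-74268209, plus strand), had 744, 878 and 1177 CPM in the TAT-CRE mice, against 1076 and 814 CPM in the PBS mice. Arpc1b, the form of the Arpc1 subunit that is prominent in blood cells (chr5:145114215-145130705, plus strand), had 642, 820 and 435 CPM in the TAT-CRE mice, against 661 and 436 CPM in the PBS mice. The highest mouse was 1.58 times the lowest for Arpc2 and 1.89 times for Arpc1b, and the groups overlapped for both. Coro1a (chr7:126699773-126707787, minus strand) was steadier, with 893, 916 and 1020 CPM in the TAT-CRE mice, against 990 and 850 CPM in the PBS mice. The log2 fold changes were -0.01 ± 0.24 for Arpc2, 0.21 ± 0.29 for Arpc1b and 0.04 ± 0.20 for Coro1a (SE).

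None of the 9 genes was called between TAT-CRE and PBS mice. All 9 could be tested, 5 stood higher and 4 lower, with a median log2 fold change of 0.04, beside 0.00 over all 5996 genes tested. In this comparison edgeR called 0 genes (0.0%), with 218 at an unadjusted p under 0.05, and DESeq2 called 1, higher in TAT-CRE mice. The 9 genes had no member at an unadjusted p under 0.05. Without TAT-CRE 208 the sign changed for Actg1 (-0.082), Pfn1 (0.28), Arpc2 (0.034) and Arpc1b (-0.010). Summed NK cell markers (5 of 5 found) stood at 13.1 to 85.3 CPM in TAT-CRE mice and 210 to 346 CPM in PBS mice. CD4 lineage markers summed to 441 to 616 CPM in TAT-CRE mice and 349 to 440 CPM in PBS mice, so that these groups did not overlap either. The nearest CD4 sums were 441.39 CPM in a TAT-CRE mouse and 439.75 CPM in a PBS mouse. Of the 5996 single genes tested, 18.8% had groups that did not overlap. CD8 markers (1236 to 2180 CPM in TAT-CRE mice, 1551 to 1757 CPM in PBS mice) and tissue-resident markers (1759 to 2647 CPM in TAT-CRE mice, 1770 to 2110 CPM in PBS mice) overlapped. So did naive or central memory markers (1447 to 1661 CPM in TAT-CRE mice, 1372 to 2195 CPM in PBS mice) and regulatory markers (312 to 484 CPM in TAT-CRE mice, 189 to 323 CPM in PBS mice). The part of these markers in the levels of the 9 genes was not tested. With 3 and 2 mice, and a plate and library for each, effects of plate cannot be told apart from those of the mouse.

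**Figure D3:**
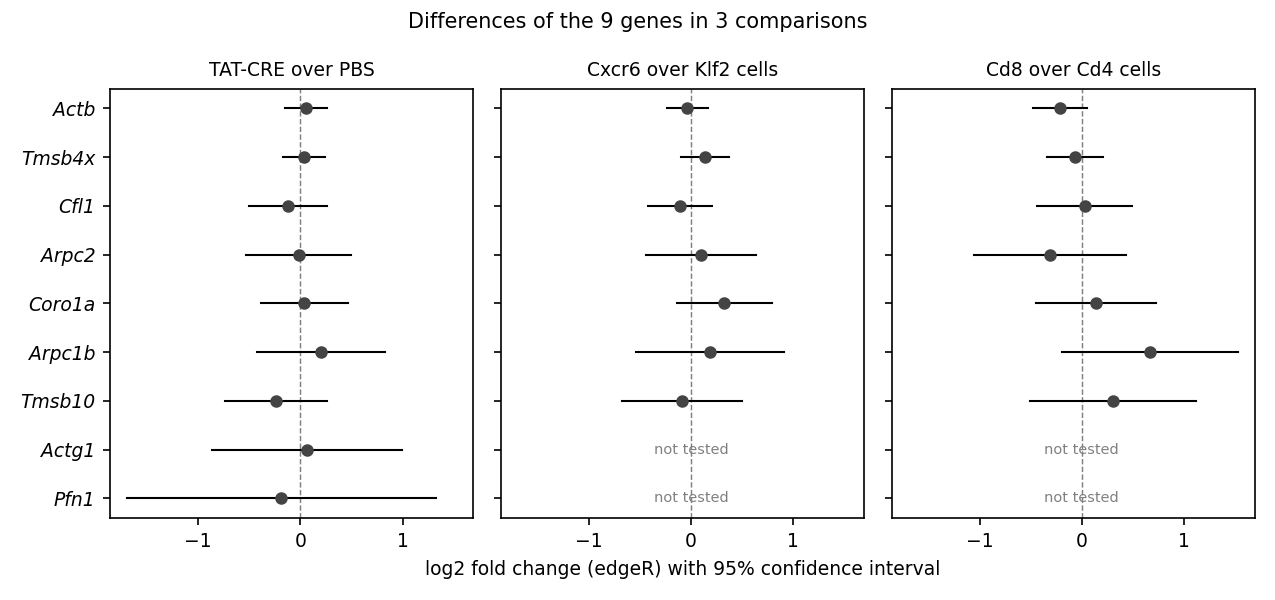
log2 fold change by edgeR with its 95% confidence interval (x axis) for each gene (y axis), in TAT-CRE over PBS mice, Cxcr6 over Klf2 cells and Cd8 over Cd4 cells. Every interval includes 0, the narrowest are those of Actb and Tmsb4x, and Actg1 and Pfn1 had too few UMIs to be tested between cell classes.

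Cells were next set apart by state within each mouse, from 2 genes that T cells use to stay or to leave. Cxcr6 is a chemokine receptor of T cells that reside in tissue, and Klf2 a transcription factor of naive and recirculating T cells. Cells with a Cxcr6 UMI and none of Klf2 (Cxcr6 cells) numbered 101, 59 and 63 in the TAT-CRE mice, against 80 and 81 in the PBS mice. Cells with a Klf2 UMI and none of Cxcr6 (Klf2 cells) numbered 30, 22 and 26 in the TAT-CRE mice, against 21 and 40 in the PBS mice. A further 910 cells had neither UMI and 49 had both. A cell lacking a UMI may still hold the transcript. Over all mice the median was 1131.5 UMIs outside ribosomal RNA in Cxcr6 cells and 1287 in Klf2 cells. Klf2 cells were the shallower class in TAT-CRE 215 (975 against 991) and PBS 218 (1679.5 against 1793). They were the deeper class in TAT-CRE 207 (1570.5 against 1194), TAT-CRE 208 (966.5 against 751) and PBS 216 (1300 against 1006.5).

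Neither Actb nor Tmsb4x passed the test between the states with the filter on low counts. Actb averaged 11450 ± 893 CPM in Cxcr6 cells and 12607 ± 1536 CPM in Klf2 cells (SD, n = 5 mice). By mouse it was 12265, 10784 and 11958 CPM in Cxcr6 cells of the TAT-CRE mice, against 12106, 15348 and 11913 CPM in their Klf2 cells. In PBS 216 and 218 it was 12017 and 10225 CPM in Cxcr6 cells, against 11849 and 11820 CPM in Klf2 cells. It was thus lower in Cxcr6 cells by a clear margin in TAT-CRE 208 and PBS 218 and almost equal in the other 3 mice. With the mouse as a block, the log2 fold change was -0.04 ± 0.09 (SE, edgeR adjusted p = 0.932; interval -0.23 to 0.16). That estimate was scaled by TMM, which the CPM levels were not. Without TMM it was -0.13, where all genes tested had moved by a median of -0.09. Tmsb4x averaged 10333 ± 922 CPM in Cxcr6 cells and 10135 ± 1496 CPM in Klf2 cells, with a log2 fold change of 0.14 ± 0.11 (adjusted p = 0.787; interval -0.10 to 0.37). Without the filter both passed it, at 0.22 for Actb (edgeR adjusted p = 0.00449) and 0.39 for Tmsb4x (1.37e-09), where the scale itself had moved by 0.26 over the genes tested. Without TAT-CRE 208 the Actb estimate was 0.039.

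The scarcer genes gave wider intervals. Coro1a averaged 876 ± 179 CPM in Cxcr6 cells and 746 ± 148 CPM in Klf2 cells, with a log2 fold change of 0.33 ± 0.21 (SE, adjusted p = 0.726; interval -0.14 to 0.79), and was higher in Cxcr6 cells in 3 of 5 mice. Cfl1 averaged 1299 ± 154 CPM in Cxcr6 cells and 1504 ± 253 CPM in Klf2 cells and was lower in Cxcr6 cells in 4 of 5 mice (log2 -0.11 ± 0.14). The log2 fold change was 0.10 ± 0.25 for Arpc2, 0.19 ± 0.33 for Arpc1b and -0.08 ± 0.27 for Tmsb10. Despite its positive estimate, Arpc2 was lower in Cxcr6 cells in 4 of 5 mice. The exception was PBS 218, with 841 CPM in Cxcr6 cells and 404 CPM in Klf2 cells. Without PBS 218 the Arpc2 estimate was -0.18. Arpc1b differed more between mice than between states: Cxcr6 cells ran from 264 CPM in PBS 218 to 943 CPM in TAT-CRE 208, and Klf2 cells from 182 CPM in TAT-CRE 215 to 1275 CPM in TAT-CRE 208. Actg1 had 52 UMIs in all Cxcr6 cells and 28 in all Klf2 cells, and Pfn1 had 42 in Cxcr6 cells and 8 in Klf2 cells, too few for a test.

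Of the 7 members tested between the states, edgeR called 0, beside 5 of 1148 genes (0.436%). Those were Id2, Nkg7, Ccl5 and AW112010, higher in Cxcr6 cells, and Dgka, lower. DESeq2 called 15 genes, none of them members, and edgeR called 1 gene without TAT-CRE 207 and 3 without PBS 216. The median of the 7 members was 0.10 on the log2 scale, and that of all 1148 genes tested was 0.09. Cells without a UMI of either marker had levels of the same order, with Actb at 12299 ± 853 CPM, Tmsb4x at 10686 ± 522 CPM and Cfl1 at 1167 ± 62.6 CPM (SD, n = 5 mice).

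Whether TAT-CRE and PBS mice differed more in one state than in the other was tested as an interaction with the mouse as a block. None of the 7 members tested, which leave out Actg1 and Pfn1, was called, and edgeR called 0 of 1148 genes (0.0%), with 28 at an unadjusted p under 0.05 and 0 called by DESeq2. The estimate was -0.04 ± 0.21 for Actb (0.092 without TAT-CRE 208) and 0.26 ± 0.23 for Tmsb4x on the log2 scale (SE). It was 0.12 ± 0.31 for Cfl1, 0.33 ± 0.44 for Coro1a and -0.26 ± 0.52 for Arpc2. The wide errors of Arpc1b (0.70 ± 0.67) and Tmsb10 (0.76 ± 0.52) left a difference in either direction inside their intervals.

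Lineage was read from Cd8a, Cd8b1 and Cd4, the coreceptor genes that separate cytotoxic from helper T cells. Cells with a Cd8a or Cd8b1 UMI and none of Cd4 (Cd8 cells) numbered 174, 76 and 125 in the TAT-CRE mice, against 134 and 121 in the PBS mice. Cells with a Cd4 UMI and none of Cd8a or Cd8b1 (Cd4 cells) were few: 22, 19 and 23 in the TAT-CRE mice, against 13 and 8 in the PBS mice. A further 742 cells had none of these UMIs. Median depth over all mice was 1113 UMIs outside ribosomal RNA in Cd8 cells and 995 in Cd4 cells, but the order differed between mice. By mouse it was 1202.5, 813 and 946 in Cd8 cells of the TAT-CRE mice, against 997, 874 and 988 in their Cd4 cells. In PBS 216 and 218 it was 953 and 1675 in Cd8 cells, against 733 and 2367 in Cd4 cells.

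Actb stood lower in Cd8 cells than in Cd4 cells of the same mouse in 5 of 5 mice, a difference that did not pass the test. In Cd8 cells it had 11021, 11848 and 11782 CPM in the TAT-CRE mice, against 12021 and 11232 CPM in the PBS mice. In Cd4 cells it had 15785, 13491 and 13599 CPM in the TAT-CRE mice, against 13093 and 12099 CPM in the PBS mice. Every Cd8 value lay below every Cd4 value, the closest being 12021 CPM in Cd8 cells of PBS 216 and 12099 CPM in Cd4 cells of PBS 218. Of the 850 genes tested, 26 (3.06%) were lower in Cd8 cells in 5 of 5 mice, and 5 (0.588%) had every Cd8 value below every Cd4 value. The log2 fold change was -0.22 ± 0.12 (SE, edgeR adjusted p = 0.896, unadjusted p = 0.102), with an interval of -0.48 to 0.05. It was -0.11 without TAT-CRE 207, the mouse with the largest difference, where all genes tested had moved by a median of 0.05. It was -0.10 without TAT-CRE 208, where all genes tested had moved by a median of 0.11, about as far as Actb. Without the filter on low counts it turned to 0.56 (edgeR adjusted p = 5.66e-19) and that of Tmsb4x to 0.71 (3.79e-24), where the scale had moved by 0.79 over the genes tested. After each cell was thinned to 200 UMIs outside ribosomal RNA, 77.4% ± 4.66 of Cd8 cells and 85.1% ± 6.76 of Cd4 cells still had an Actb UMI (SD, n = 5 mice). The same shares for Tmsb4x were 75.3% ± 3.90 and 85.4% ± 10.9, so this gap was not particular to Actb.

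The other members gave no common direction between the lineages. Tmsb4x averaged 10287 ± 791 CPM in Cd8 cells and 10977 ± 1961 CPM in Cd4 cells (SD, n = 5 mice), was higher in Cd8 cells in 3 of 5 mice and had a log2 fold change of -0.06 ± 0.13 (SE; 0.085 without TAT-CRE 208). Arpc1b averaged 709 ± 369 CPM in Cd8 cells and 422 ± 193 CPM in Cd4 cells, was higher in Cd8 cells in 4 of 5 mice and had the largest estimate of the members, 0.67 ± 0.40 (adjusted p = 0.896; interval -0.19 to 1.53). Arpc2, which binds in the same complex, averaged 837 ± 166 CPM in Cd8 cells and 1072 ± 585 CPM in Cd4 cells and was lower in Cd8 cells in 4 of 5 mice (log2 -0.31 ± 0.34). Its Cd4 level ran from 299 CPM in PBS 216, from 4 UMIs in 13 cells, to 1902 CPM in TAT-CRE 215. Cfl1 (log2 0.03 ± 0.22), Coro1a (0.14 ± 0.27) and Tmsb10 (0.31 ± 0.38) lay within their errors of 0, and Actg1 and Pfn1 had 9 and 2 UMIs in all Cd4 cells. Of the 7 members tested, 4 stood higher and 3 lower and edgeR called 0, beside 2 of 850 genes (0.235%), Ccl5 and Ly6c2. DESeq2 called 9 genes, none of them members.

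**Figure D4:**
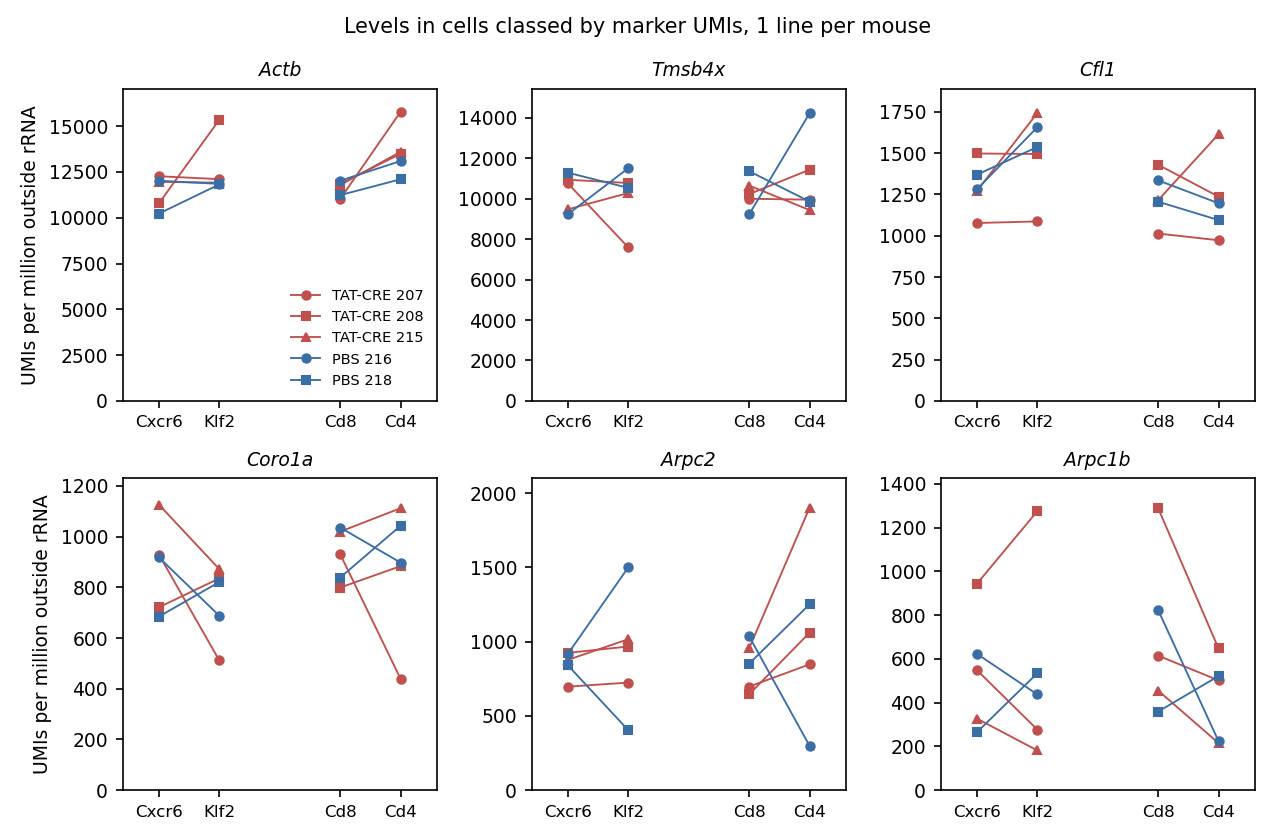
Level of 6 genes (y axis, CPM, from 0) in Cxcr6, Klf2, Cd8 and Cd4 cells (x axis), with 1 line per mouse joining the classes compared, TAT-CRE in red and PBS in blue. All 5 Actb lines are lower at Cd8 than at Cd4, while the lines of the other 5 genes cross.

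Because 190 of the Cxcr6 cells and 63 of the Klf2 cells were also Cd8 cells, the states were compared again within that lineage. Cfl1 had the smallest p of the members, with a log2 fold change of -0.42 ± 0.19 in Cxcr6 over Klf2 cells (SE, edgeR adjusted p = 0.547, unadjusted p = 0.0514; interval -0.84 to 0.00). Over the alternatives this estimate ran from -0.58 to -0.14, with adjusted p-values from 0.335 to 0.990. Actb stood at -0.01 ± 0.12 (0.027 without TAT-CRE 208), Tmsb4x at 0.14 ± 0.16 and Coro1a at 0.26 ± 0.29. Arpc2 stood at 0.39 ± 0.36, Arpc1b at 0.11 ± 0.63 and Tmsb10 at -0.36 ± 0.40. Without the filter on low counts Tmsb4x passed the test, at 0.42 (edgeR adjusted p = 0.0101), where the scale had moved by 0.29. With the filter the 7 members tested, again without Actg1 and Pfn1, had 0 calls, beside 2 of 432 genes (0.463%), Id2 and AW112010, and DESeq2 called 5 genes. The count of genes was 4 without TAT-CRE 207 and 4 without TAT-CRE 208, 0 without TAT-CRE 215 and 1 without PBS 218.

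From cell to cell, Actb and Tmsb4x were present nearly everywhere and the scarcer genes were patchy. A UMI of Actb was found in 95.7% of the 1482 cells and one of Tmsb4x in 94.8%, with a median of 10 and 9 UMIs per cell and up to 111 and 86. At 200 UMIs a cell the shares were 79.5% and 76.1%, from 1481 cells deep enough. In the 20 empty wells, which held 17 to 160 UMIs each, Actb had a UMI in 7 and Tmsb4x in 5. The 9 genes took 24 of 617 UMIs outside ribosomal RNA there, or 3.89% (exact 95% binomial interval 2.51% to 5.73%, counting error only), and the cells' 2.70% lies inside that interval. Cfl1 had a UMI in 44.1% of cells, Coro1a in 40.4%, Tmsb10 in 33.7%, Arpc2 in 32.1%, Arpc1b in 19.1%, Actg1 in 11.5% and Pfn1 in 4.99%. Cfl1, Arpc2 and Arpc1b each had UMIs in 1 empty well, and the remaining 4 had none there.

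Genes of like abundance were spread over different numbers of cells. Tmsb10 and Arpc1b had 998 and 991 UMIs, yet Tmsb10 lay in 33.7% of cells with 2.00 UMIs per cell that had one, and Arpc1b in 19.1% with 3.50. Among 49 genes with 915 to 1124 UMIs the median share was 24.5%, and 8 of them lay in fewer cells than Arpc1b. Coro1a and Arpc2 made a like pair at 1583 and 1574 UMIs, with 40.4% and 32.1% of cells and 2.64 and 3.31 UMIs per cell that had one. Actg1, at 196 UMIs, lay in 11.5% of cells, more than any of the 50 genes nearest to it in abundance (median 5.40%, highest 11.5%). A single cell held up to 30 UMIs of Arpc2 and up to 19 of Arpc1b.

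The spread between cells beyond counting error was also smallest for Tmsb4x and Actb and largest for Arpc1b. As a coefficient of variation averaged over mice it was 51.6% ± 4.77 for Tmsb4x and 54.6% ± 7.39 for Actb, 106% ± 22.4 for Coro1a and 109% ± 23.8 for Cfl1 (SD, n = 5 mice). It was 118% ± 28.3 for Tmsb10, 145% ± 28.0 for Arpc2 and 207% ± 12.4 for Arpc1b. Of 24 genes with at least 5000 UMIs outside ribosomal RNA and mitochondrial rows, whose median was 64.2% (34.9% to 161%), 4 varied less than Tmsb4x and 7 less than Actb. TAT-CRE 208, the shallowest library, had the highest value of the mice for Actb, Tmsb4x, Coro1a, Cfl1 and Tmsb10. Cells rich in Actb were hardly richer in Tmsb4x: across cells with at least 400 UMIs outside ribosomal RNA, Pearson's r of their shares was 0.17, 0.20 and 0.10 in the TAT-CRE mice, against 0.10 and -0.04 in the PBS mice. These r describe 260 to 283 cells of 1 library each and share each cell's depth. Unlike the spread above, they were not corrected for counting error, which lowers r.

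**Figure D5:**
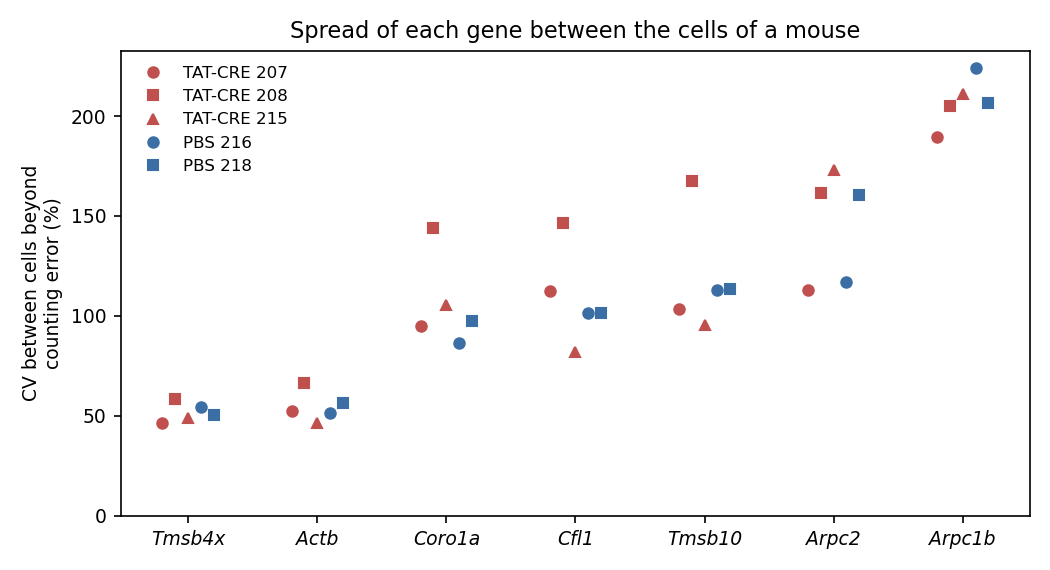
Coefficient of variation between the cells of a mouse beyond counting error (y axis, percent) for 7 genes (x axis, in order of the mean), 1 point per mouse, TAT-CRE in red and PBS in blue. Tmsb4x and Actb lie between 46.3% and 66.3%, and Arpc1b between 189% and 224%.

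The wider actin machinery was read from a list of 86 further genes, of which 84 had a row and 74 could be tested between TAT-CRE and PBS mice. None was called, 31 stood higher and 43 lower, the median log2 fold change was -0.08, and 3 had an unadjusted p under 0.05. By role, of 12 nucleation promoters and formins, which start filaments, 9 stood lower (median -0.22). Of 11 genes of subunit binding and turnover 9 stood lower (median -0.21), and of 9 myosin and tropomyosin genes 7 stood lower (median -0.19). The other subunits of the Arp2/3 complex had 4 higher and 2 lower (median 0.10), and genes of crosslinking and membrane links 7 and 7 (median -0.01). Capping and severing genes had 2 higher and 3 lower (median -0.10), and genes of the SRF pathway, which senses free actin, 1 and 2 (median -0.32). The remaining 14 genes tested are counted in the totals alone, so the groups named here do not add up to them. Over all genes tested 2985 of 5996 stood higher. Between Cxcr6 and Klf2 cells 45 could be tested, with 27 higher, 18 lower, a median of 0.17 and 0 called, beside 659 of 1148 genes higher and a median of 0.09 over all. Between Cd8 and Cd4 cells 36 could be tested, with 22 higher, 14 lower, a median of 0.10 and 0 called, beside 521 of 850 genes higher and a median of 0.12 over all.

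Likeness to the summed 9 genes was measured as Pearson's r of log2 CPM with 1 UMI added over 15 sums, 5 mice by 3 classes of cells (Cxcr6, Klf2 and neither), among 970 genes with at least 300 UMIs. The most alike genes were Gm13226 (r = 0.75), Ptp4a2 (0.74), Rps3a3 (0.74), Il2rg (0.71) and Rap1a (0.70). Ptp4a2 is a protein tyrosine phosphatase, Il2rg the common gamma chain of cytokine receptors and Rap1a a small GTPase. The summed level moved over only 0.44 on the log2 scale, and the 15 sums share mice and libraries. The 5 genes were picked as the highest of 970, and such a pick yields high r over 15 sums among unrelated genes too. Whether their r exceed that was not tested. Each member is part of the sum, and Actb and Tmsb4x make up most of it, so that their r with the sum (0.68 and 0.67) are largely fixed by how it was made. The r was 0.57 for Arpc1b, 0.45 for Coro1a, 0.41 for Arpc2, 0.32 for Cfl1, 0.09 for Pfn1, 0.05 for Actg1 and -0.20 for Tmsb10. Actb and Tmsb4x had an r of -0.06 with each other, and the highest r of a pair was 0.46, for Actb and Arpc1b.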

How the data were processed

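The authors deposited whole-number UMI counts for each gene in each well. Mouse build mm10 and the tool bcl2fastq 2.15.0.4 are named in the submitters' processing notes. The sources used here do not give the aligner, the annotation or the use of strand. Sorted cells per well are also deposited as counts, per the file headers, for plates of 384 wells. Kept wells had 1 cell, no fewer than 400 UMIs (spike-ins left out) and no more than 30% mitochondrial UMIs, and no doublet caller was run. Each library was taken as 1 mouse, since whether animals were pooled is not stated.

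UMIs were summed per mouse, or per mouse and cell class, without 4 ribosomal RNA rows (Gm42418, Gm26917, mt-Rnr1, mt-Rnr2). Sums were tested with edgeR 4.0.16 (R 4.3.3; TMM, filterByExpr, quasi-likelihood, Benjamini-Hochberg over all genes tested, threshold 0.05). Comparisons of classes had the mouse as a block, because both classes came from the same animals. DESeq2 1.42.0 was an alternative, and the edgeR fits were tested on simulated data. Near copies were found with blastn 2.17.0 in GENCODE M21. The spread between cells is the variance of UMIs above that expected from sampling each cell's depth. The members, gene lists and tests were chosen with earlier results of these data known. The members that could be tested are named in every comparison, genes of the wider actin list only where called, and the 5 genes most like the members by correlation. The genes called between classes, and the genes of like abundance, were looked at after the data were seen. A marker list and a group of the wider actin list are not reported here.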

Additional observations from a re-analysis of the deposited data

Results flagged for a closer look

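The ratio of a gene's level between the cell classes of 1 mouse was set against the ratios of the other 4 mice, for 15 combinations of gene and comparison. Of these, 3 had a mouse far from the rest, with a gap to the nearest mouse beyond Dixon's 95% critical value for 5 samples, which chance passes in about 1 of 20 groups. All 3 were ratios of Cd8 to Cd4 cells, and each rests on few Cd4 cells. For Actb it was TAT-CRE 207, with a log2 ratio of -0.52, where the other 4 mice lay between -0.21 and -0.11. For Arpc2 it was PBS 216, with a log2 ratio of 1.79 that rests on 4 Arpc2 UMIs in 13 Cd4 cells, where the other 4 lay between -0.99 and -0.28. For Cfl1 it was TAT-CRE 215, with a log2 ratio of -0.41, where the other 4 lay between 0.06 and 0.21. The cause was not tested.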

How the results depend on the processing

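Of 521 values of members under the alternatives, 454 kept their direction and their side of the threshold, 65 changed sign and 2 passed the threshold with the same sign. Of the 65, 3 also passed it, which makes 5 values past the threshold, all without the filter on low counts. No member was called with the filter, and the cause was not tested where none is given. Without that filter the scale moved, by a median of 0.79 on the log2 scale for Cd8 against Cd4 cells, 0.26 for Cxcr6 against Klf2 cells and 0.29 for Cxcr6 against Klf2 cells within Cd8 cells. There Cd8 against Cd4 cells gave Actb 0.56 (edgeR adjusted p = 5.66e-19), Tmsb4x 0.71 (3.79e-24) and Arpc2 0.51. Cxcr6 against Klf2 cells gave Actb 0.22 (adjusted p = 0.00449), Tmsb4x 0.39 (1.37e-09), Tmsb10 0.20 and Cfl1 0.15. Within Cd8 cells it gave Tmsb4x 0.42 (adjusted p = 0.0101) and Actb 0.26, and the interaction Actb 0.0070. With those shifts taken off, Actb and Tmsb4x stand close to the reported estimates. Genes called without the filter numbered 8 for TAT-CRE against PBS, 38 for Cxcr6 against Klf2 cells, 87 for Cd8 against Cd4 cells and 14 within Cd8 cells.

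DESeq2 called 1, 15, 9 and 5 genes in those comparisons, in that order, and gave Cfl1 -0.034 (Cd8 against Cd4) and Actb 0.0064 (within Cd8 cells). Thinned cells gave 1 call for TAT-CRE against PBS and 0 of 23 genes within Cd8 cells. Cxcr6 against Klf2 cells gave 2 calls at 1000 UMIs a cell and 3 at 20% mitochondrial UMIs. Within Cd8 cells 1 gene was called at 20% mitochondrial UMIs and 1 without TMM, where the scale moved by -0.12. Other changes of sign for TAT-CRE against PBS were Actg1 -0.0018 with near copies added, Cfl1 0.033 and Arpc2 0.093 when thinned, and Arpc2 0.067 and Arpc1b -0.049 at 20% mitochondrial UMIs. For Cxcr6 against Klf2 cells they were Actb 0.092 and Tmsb10 0.17 at 20%, Cfl1 0.0023 when thinned and Arpc2 -0.015 at 1000 UMIs. For Cd8 against Cd4 cells they were Tmsb4x 0.0042 at 1000 UMIs, and Cfl1 -0.036 with near copies added, -0.0026 with ribosomal RNA counted, -0.044 with no mitochondrial limit and -0.064 when thinned. For the interaction they were Tmsb4x -0.15 when thinned and Cfl1 -0.62 and Arpc2 0.28 at 20%. Within Cd8 cells Actb turned to 0.013 with near copies added, 0.0065 with ribosomal RNA counted, 0.012 at 1000 UMIs, 0.24 at 20%, 0.027 with no mitochondrial limit and 0.043 when thinned, and Arpc1b to -0.014 without TMM.

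Leaving out each mouse in turn gave 0 to 1 calls for TAT-CRE against PBS, 1 to 6 for Cxcr6 against Klf2 cells and 0 to 4 within Cd8 cells. Members that changed sign ranged, for TAT-CRE against PBS, from -0.018 to 0.15 (Actb), -0.082 to 0.30 (Actg1), -0.026 to 0.11 (Tmsb4x), -0.70 to 0.28 (Pfn1), -0.072 to 0.17 (Coro1a), -0.22 to 0.22 (Arpc2) and -0.074 to 0.55 (Arpc1b). For Cxcr6 against Klf2 cells the ranges were -0.089 to 0.039 (Actb), -0.20 to 0.093 (Tmsb10), -0.18 to 0.30 (Arpc2) and -0.017 to 0.50 (Arpc1b). For Cd8 against Cd4 cells they were -0.12 to 0.085 (Tmsb4x), -0.031 to 0.19 (Cfl1) and -0.057 to 0.33 (Coro1a). For the interaction they were -0.18 to 0.092 (Actb), -0.015 to 0.64 (Coro1a), -1.15 to 0.63 (Arpc2) and -0.098 to 1.42 (Arpc1b), and within Cd8 cells -0.060 to 0.14 (Actb) and -0.38 to 0.68 (Arpc1b). With near copies added, an alternative chosen after seeing the data, Tmsb10 stood at -0.31 for TAT-CRE against PBS.

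No paired analysis was possible because TAT-CRE and PBS mice share no replicate number. Without the mouse as a block, Cxcr6 against Klf2 cells gave 4 calls, Cd8 against Cd4 cells 2 and the Cd8 cells alone 2, and of the members Arpc1b alone changed sign, to -0.19 within Cd8 cells. Depth limits Actg1 and Pfn1, which could not be tested between classes, and every value of the 85 Cd4 cells.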
